A study of Mus musculus with 18 samples.

Results

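The 43 genes described here run the cell division cycle, and they were taken by name from the 24421 genes counted in 18 left-ventricle libraries of C57BL/6 mice. They comprise 13 genes of DNA synthesis (called S phase genes), 28 genes of chromosome condensation, mitosis and cytokinesis (called mitotic genes) and 2 D cyclins of the first growth phase. The study set age and loss of the stress-induced protein Sesn2 beside injury of the heart by ischaemia and reperfusion (IR). Each of 6 groups held 3 libraries. WT mice were either young (3 to 4 months) or aged (24 to 26 months), and Sesn2-/- mice (Sesn2-KO) had the age of the young ones. IR meant tying off the left anterior descending artery for 45 min, followed by 24 h of renewed flow, and sham mice had the same surgery on the chest without the tie. The young WT mice were bought from one supplier, the aged WT mice came from another, and the Sesn2-KO mice were bred by the authors, so supplier or colony cannot be told apart from age or genotype in any comparison between mouse groups. The whole left ventricle was taken, and the labels do not say how much of it was infarcted. They also do not say that each library is a separate animal, so a p-value here reflects only how far these libraries spread.

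Before a cell divides it must copy its DNA once and then part the copies evenly. In S phase the MCM proteins unwind DNA at replication origins, PCNA clamps the polymerase to the template, and ribonucleotide reductase, thymidylate synthase and thymidine kinase supply nucleotides. In mitosis cyclin B with Cdk1, the Aurora and Polo kinases, kinesin motors and the spindle checkpoint condense, align and separate chromosomes. Adult mammalian heart muscle cells have largely left the cycle, whereas fibroblasts, endothelial cells and leukocytes of the heart can still divide. E2F factors are known to drive S phase genes, and the MuvB complexes with B-Myb and Foxm1 to drive mitotic genes through a CHR element and neighbouring CCAAT boxes.

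The promoters of the genes are shown first, with the share of each group that holds the letters of these elements. RefSeq promoter windows (GRCm38.p6, from 250 bases before to 50 after a start) were found for 34 of the 43 genes, 11 S phase and 23 mitotic, in 37 windows. The letters searched on both strands were TTTGAA or TTCGAA for the CHR element, CCAAT for the CCAAT box, and TTT followed by CC, GG, CG or GC and then CGC for an E2F element. The CHR letters were found for 19 of 23 mitotic genes (82.6%) and 2 of 11 S phase genes (18.2%), against 21.7% of 27025 genes with a window of 300 bases. A CCAAT box was found for 20 of 23 mitotic genes (87.0%) and 8 of 11 S phase genes (72.7%), against 41.1% of all genes. CHR letters and a CCAAT box were both found for 18 of 23 mitotic genes (78.3%), 2 of 11 S phase genes (18.2%) and 8.61% of all genes. The E2F letters were found for 4 of 11 S phase genes (36.4%), 1 of 23 mitotic genes (4.35%) and 2.6% of all genes. These S phase genes were Mcm3, Mcm5, Mcm6 and Mcm7, and the windows of Pcna, Rrm1, Rrm2, Tyms, Tk1, Ccne1 and Mcm2 held no E2F letters. Where the CHR letters were sought only in the 150 bases before the start, 8 of 23 mitotic genes held them (34.8%, against 11.2% of all genes), because 11 genes had them only farther away or after the start. In these 150 bases both CHR letters and a CCAAT box were found for 8 of 23 mitotic genes (34.8%) and 2.85% of all genes. The E2F letters were found there for 2 of 11 S phase genes (18.2%), 1 of 23 mitotic genes (4.35%) and 1.44% of all genes. The 6 windows below show the 160 bases before the start of 3 mitotic genes with CHR letters there, 2 S phase genes with E2F letters there, and Cenpf, whose values go against those of the other mitotic genes. Capitals mark the letters searched, and 2 E2F matches overlap within 1 run of capitals in Mcm5 and in Mcm6.
Cdc20 (chr4:118437344-118437503, minus strand): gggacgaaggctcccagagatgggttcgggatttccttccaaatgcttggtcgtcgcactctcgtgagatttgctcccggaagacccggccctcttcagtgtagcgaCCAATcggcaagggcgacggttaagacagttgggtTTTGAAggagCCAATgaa
Cdk1 (chr10:69352913-69353072, minus strand): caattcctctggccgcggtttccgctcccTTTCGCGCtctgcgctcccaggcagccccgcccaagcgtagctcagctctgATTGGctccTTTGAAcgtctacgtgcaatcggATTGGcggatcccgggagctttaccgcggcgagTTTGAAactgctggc
Mki67 (chr7:135716380-135716539, minus strand): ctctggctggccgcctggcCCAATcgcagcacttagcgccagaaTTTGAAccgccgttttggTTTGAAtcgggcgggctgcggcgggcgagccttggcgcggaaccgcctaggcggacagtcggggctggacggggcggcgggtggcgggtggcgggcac
Mcm5 (chr8:75109349-75109508, plus strand): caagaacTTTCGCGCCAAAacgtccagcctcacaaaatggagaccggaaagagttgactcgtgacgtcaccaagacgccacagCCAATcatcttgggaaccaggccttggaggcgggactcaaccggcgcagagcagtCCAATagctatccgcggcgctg
Mcm6 (chr1:128359706-128359865, minus strand): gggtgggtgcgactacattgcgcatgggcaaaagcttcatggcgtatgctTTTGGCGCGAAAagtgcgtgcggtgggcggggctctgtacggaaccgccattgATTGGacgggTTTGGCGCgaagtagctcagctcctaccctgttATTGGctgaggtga
Cenpf (chr1:189688087-189688246, minus strand): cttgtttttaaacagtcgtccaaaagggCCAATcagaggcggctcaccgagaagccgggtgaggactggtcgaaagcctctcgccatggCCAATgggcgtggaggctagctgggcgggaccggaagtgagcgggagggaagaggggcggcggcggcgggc

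Cdc20 activates the ligase that starts anaphase, and its window has 1 CHR match and 2 CCAAT boxes. Cdk1 is the mitotic kinase, and its window is the one among the mitotic genes that also holds E2F letters. Mki67 codes for the Ki-67 protein that coats mitotic chromosomes. Mcm5 and Mcm6 are subunits of the replicative helicase and have 2 and 3 E2F matches in the stretch shown. Cenpf, a kinetochore protein, has 2 CCAAT boxes in the stretch shown and its 1 CHR match lies just after the start. The end of the window after the start was found in a GENCODE transcript of the gene for 32 of 37 windows, but not for Mcm5 or Mcm6. A match is a string of letters and not a measured binding site.

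**Figure D1:**
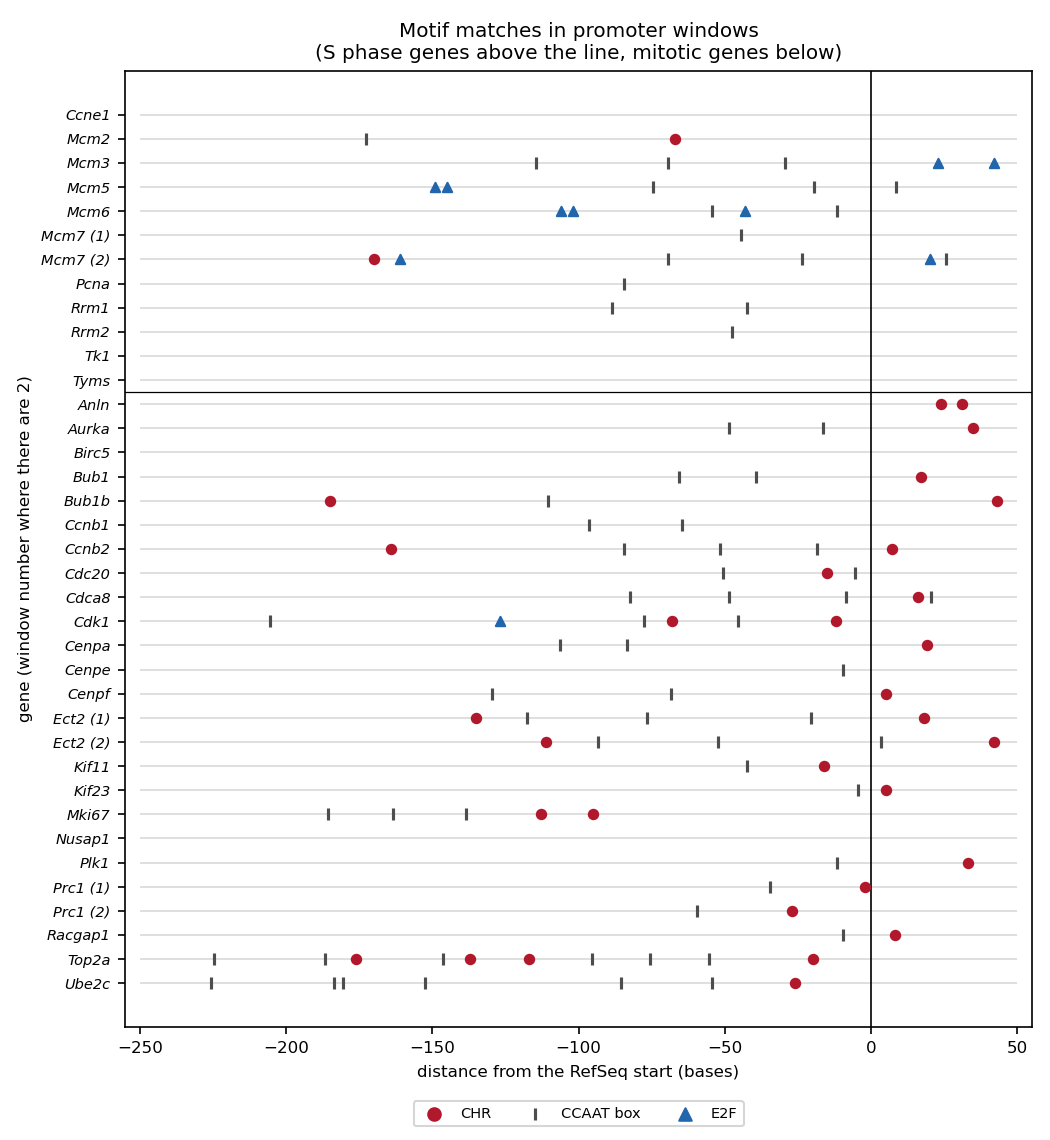
Each line is the RefSeq promoter window of a gene, from 250 bases before to 50 bases after its start at 0, with matches to the CHR, CCAAT and E2F letters as red circles, grey ticks and blue triangles. CHR matches fall mostly on mitotic genes (19 of 23) and E2F matches mostly on S phase genes (4 of 11, all of them Mcm genes).

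Libraries held 9404531 to 14458047 counts in genes. The files used the mm10 build per the submitters' processing notes, and GENCODE places the genes the tests below single out at chr5:30058202-30073617 (Tyms), chr16:15623897-15637400 (Mcm4), chr5:138164583-138172422 (Mcm7), chr2:132249162-132253314 (Pcna), chr5:30666777-30674830 (Cenpa) and chr1:189640606-189688086 (Cenpf) of the same assembly, GRCm38. All 43 genes passed the filter on low counts, under which 13859 genes were tested, and the lowest count of any of them was 1 (Plk1 in young IR 1). The targeted gene Sesn2 had 30 to 86 counts in the 12 WT libraries (2.50 to 6.03 CPM, counts scaled to a library total of 1000000) and 0 to 5 counts in the 6 Sesn2-KO libraries (up to 0.362 CPM). Replicates of a group differed by more than sampling noise (chi-square per degree of freedom at least 8.48). In each group 1 library leaned towards long transcripts (Spearman's rho of its deviation from the group mean with transcript length 0.314 to 0.48, against -0.429 to -0.015 in the others). These were number 1 of the young and of the aged sham groups and number 3 of the other 4 groups. Counts of genes that passed the test are given below also without them. Heart muscle markers were abundant in every library (summed 27063 to 37811 CPM over 8 genes).

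At rest the 43 genes covered a wide range of levels. In young sham hearts the highest level per kilobase of the longest transcript was that of Ccnd1 (35.1 CPM per kb), followed by Pcna (31.3), Ccnd2 (20.5) and Cenpa (18.1). The 6 Mcm genes lay between 2.04 (Mcm5) and 5.17 (Mcm7) CPM per kb. The lowest were Cenpe (0.2504), Bub1 (0.263), Ect2 (0.288), Ccnb1 (0.321) and Plk1 (0.373), all mitotic. Apart from Cenpa and Cenpf (4.75 CPM per kb), no mitotic gene exceeded 1.21 (Cdc20), so each of the other mitotic genes lay below every Mcm gene per length. The S phase genes Ccne1 (1.18), Ccne2 (1.15) and Tyms (0.865) lay within the range of these mitotic genes.

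The summed level of the 13 S phase genes was higher after IR in all 3 kinds of mice, with no overlap between sham and IR libraries within any of them. The sum itself carries no test. Their summed level was 168, 163 and 179.9 in young WT, 171, 157 and 163 in aged WT and 183, 196 and 176 in Sesn2-KO sham hearts (CPM, here and below in the order of replicates 1 to 3). After IR it was 181, 358 and 278 in young WT, 330.3, 179 and 229.9 in aged WT and 265, 263 and 272 in Sesn2-KO hearts. The Sesn2-KO IR hearts lay between 263 and 272, whereas 1 young and 1 aged IR library, young IR 1 and aged IR 2, stayed close to the sham hearts. In young mice the margin was narrow, at 181 in young IR 1 against 179.9 in young sham 3. Of these sums Pcna alone gave 57.5 and 49.2 CPM, so the separation in young mice leaned on that abundant gene. In bulk tissue, more cells in cycle and more of this RNA per cell cannot be told apart. The 26 mitotic genes other than Cenpa and Cenpf, a set chosen after the data had been seen, behaved less evenly. Their summed level was 61.9, 62.9 and 91.6 in young WT, 116, 50.8 and 118 in aged WT and 38.7, 73.4 and 104 in Sesn2-KO sham hearts. After IR the same sum was 39.1, 402 and 153 in young WT, 203, 49.02 and 119 in aged WT and 165, 65.4 and 150.3 in Sesn2-KO hearts. Young IR 1 was below every young sham library and young IR 2 was above every other library of the study, a 10.3-fold range within 1 group. Sham and IR libraries overlapped in all 3 kinds of mice for this sum.

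**Figure D2:**
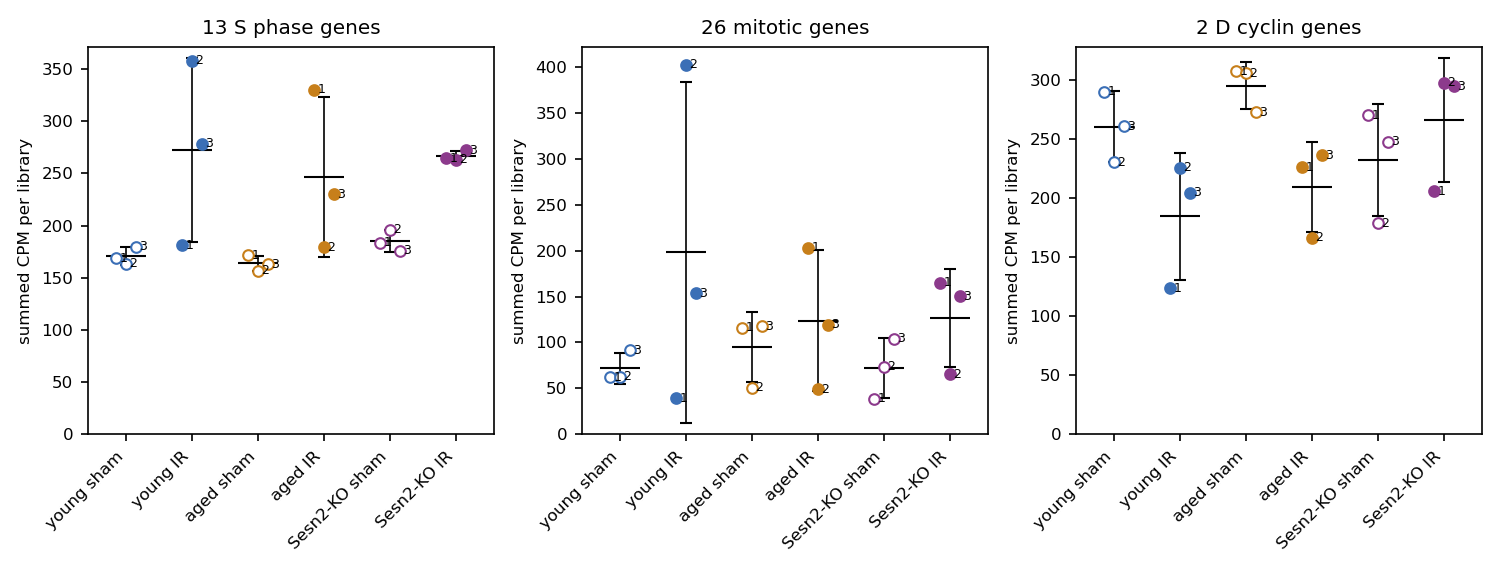
Summed CPM of the 13 S phase genes, of 26 mitotic genes and of the 2 D cyclins in each library, numbered by replicate. The group mean and SD are shown (n = 3). Cenpa and Cenpf were left out of the mitotic sum after the data had been seen. The S phase sums of all IR libraries lie above the sham libraries of the same kind of mouse, and the mitotic sums of young IR libraries run from 39.1 to 402.

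Among the helicase genes, Mcm5 moved most. It stood at 7.29, 4.79 and 8.602 in young WT, 7.61, 5.78 and 5.61 in aged WT and 6.45, 6.698 and 7.38 in Sesn2-KO sham hearts, and at 7.08, 25.4 and 19.3 in young WT, 21.6, 7.55 and 13.6 in aged WT and 12.5, 16.9 and 17.99 in Sesn2-KO hearts after IR (CPM). Young IR 1 and aged IR 2 lay among the sham values, and all 3 Sesn2-KO IR libraries lay above theirs. Mcm2 stood at 12.6, 11.46 and 13.4 in young WT, 12.9, 9.27 and 9.63 in aged WT and 9.52, 9.53 and 12.4 in Sesn2-KO sham hearts, and at 8.33, 25.4 and 20.98 in young WT, 21.1, 8.61 and 15.8 in aged WT and 13.4, 16.1 and 18.7 in Sesn2-KO hearts after IR. Young IR 1 and aged IR 2 had the lowest Mcm2 values of all 18 libraries. Mcm4 stood at 16.8, 12.8 and 16.1 in young WT, 12.2, 11.3 and 15.4 in aged WT and 15.4, 18.8 and 15.8 in Sesn2-KO sham hearts, and at 17.3, 26.1 and 23.1 in young WT, 25.8, 16.2 and 18.6 in aged WT and 21.1, 23.8 and 23.03 in Sesn2-KO hearts after IR. Its IR values were above all sham values within each kind of mouse. Mcm7 stood at 14.8, 15.3 and 15.8 in young WT, 16.9, 14.2 and 16.5 in aged WT and 18.2, 22.1 and 16.9 in Sesn2-KO sham hearts, and at 20.2, 26.6 and 22.9 in young WT, 26.9, 17.97 and 17.9 in aged WT and 24.03, 21.95 and 25.3 in Sesn2-KO hearts after IR, with overlap only in Sesn2-KO mice. Mcm7 overlaps the genes Cops6 and Ap4m1 on the genome, and no strand option is given for the counting, so part of its counts could be theirs. Ccne2 (Ints8), Ccna2 (Exosc9), Cdc20 (Elovl1), Cdca8 (9930104L06Rik), Kif20a (Cdc23), Nusap1 (Oip5), Prc1 (Rccd1) and Ccnd2 (9330179D12Rik) also overlap other expressed genes. The same limit holds for them and for Tk1. Mcm3 ran from 9.61 to 14.5 CPM in sham and 10.4 to 28.6 in IR hearts, and Mcm6 from 13.6 to 22.6 and 18.4 to 46.1.

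The sliding clamp gene Pcna had the highest level per length of the S phase genes. It stood at 44.5, 48.8 and 49.2 in young WT, 46.8, 45.5 and 47.8 in aged WT and 52.8, 55.2 and 44.4 in Sesn2-KO sham hearts, and at 57.5, 73.3 and 60.8 in young WT, 76.5, 52.6 and 56.99 in aged WT and 65.3, 65.9 and 60.9 in Sesn2-KO hearts after IR (CPM). IR and sham values did not overlap within any of the 3 kinds of mice. Rrm1, the large subunit of ribonucleotide reductase, ran from 23.2 to 30.2 CPM in sham hearts and from 26.3 to 53.2 after IR.

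Among the nucleotide supply genes, Tyms (thymidylate synthase) rose in young and aged hearts. It stood at 3.79, 3.45 and 2.84 in young WT, 3.39, 4.003 and 3.27 in aged WT and 4.76, 4.32 and 3.401 in Sesn2-KO sham hearts, and at 4.41, 15.5 and 8.68 in young WT, 12.2, 5.53 and 7.42 in aged WT and 11.4, 9.097 and 9.33 in Sesn2-KO hearts after IR. No IR library overlapped the sham libraries of its own kind of mouse. Rrm2, the small subunit whose supply limits ribonucleotide reductase, stood at 3.93, 4.79 and 4.301 in young WT, 5.74, 2.37 and 4.86 in aged WT and 2.64, 6.33 and 5.06 in Sesn2-KO sham hearts, and at 4.33, 13.6 and 9.92 in young WT, 14.3, 4.36 and 8.73 in aged WT and 8.72, 6.34 and 7.404 in Sesn2-KO hearts after IR. Tk1, thymidine kinase, stood at 3.37, 3.61 and 5.36 in young WT, 4.77, 2.74 and 2.71 in aged WT and 2.71, 4.69 and 3.401 in Sesn2-KO sham hearts, and at 2.33, 15.1 and 6.199 in young WT, 11.7, 3.08 and 5.15 in aged WT and 8.62, 5.26 and 6.52 in Sesn2-KO hearts after IR. For both genes young IR 1 and aged IR 2 lay within or below the sham range, and the Sesn2-KO groups did not overlap. Tk1 overlaps Afmid on the genome. Ccne1, the cyclin that opens S phase with Cdk2, stood at 2.45, 2.83 and 1.79 in young WT, 2.21, 2.15 and 2.71 in aged WT and 3.59, 2.53 and 3.26 in Sesn2-KO sham hearts, and at 1.83, 4.87 and 3.91 in young WT, 4.04, 2.23 and 3.67 in aged WT and 3.25, 3.84 and 6.22 in Sesn2-KO hearts after IR, with overlap in all 3 kinds of mice. Its relative Ccne2 ran from 2.52 to 4.42 CPM in sham hearts and from 2.58 to 5.26 after IR.

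**Figure D3:**
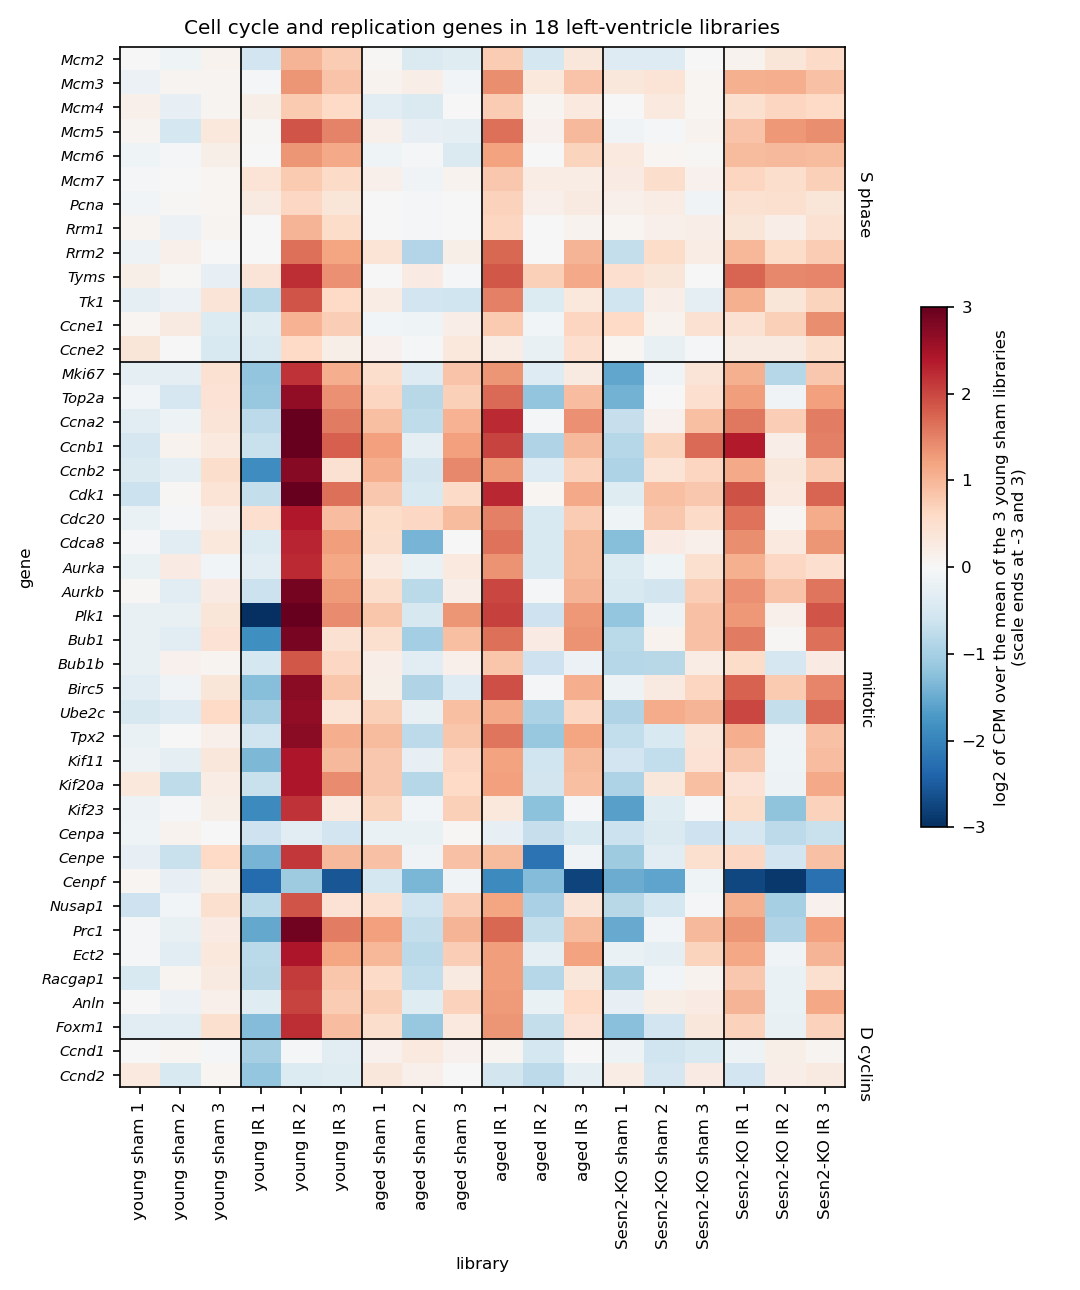
Each cell is the log2 ratio of a gene's CPM in a library to its mean in the 3 young sham libraries, for 13 S phase, 28 mitotic and 2 D cyclin genes in 18 libraries. Young IR 2 shows the highest mitotic levels and young IR 1 among the lowest, and Cenpf lies below the young sham mean in all 9 IR libraries.

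The mitotic genes varied together from library to library. Mki67 stood at 9.26, 9.18 and 15.5 in young WT, 16.3, 8.598 and 20.5 in aged WT and 3.81, 10.5 and 14.7 in Sesn2-KO sham hearts, and at 4.996, 50.5 and 24.1 in young WT, 28.5, 8.61 and 13.5 in aged WT and 23.7, 6.26 and 19.8 in Sesn2-KO hearts after IR (CPM). The lowest value after IR was in young IR 1 and the highest in young IR 2. Top2a, the topoisomerase that untangles sister chromatids, stood at 5.89, 4.39 and 8.44 in young WT, 9.75, 3.48 and 10.3 in aged WT and 2.34, 6.25 and 8.83 in Sesn2-KO sham hearts, and at 2.83, 39.2 and 16.1 in young WT, 20.3, 2.76 and 11.8 in aged WT and 14.9, 5.84 and 14.7 in Sesn2-KO hearts after IR. Sham and IR values overlapped in all 3 kinds of mice for both genes. Cdk1 stood at 1.82, 2.904 and 3.81 in young WT, 4.98, 2.08 and 4.21 in aged WT and 2.198, 5.28 and 4.99 in Sesn2-KO sham hearts, and at 1.75, 24.04 and 8.97 in young WT, 13.7, 2.98 and 6.28 in aged WT and 10.6, 3.51 and 9.48 in Sesn2-KO hearts after IR. Its partner Ccnb1 (cyclin B1) stood at 0.561, 0.863 and 0.974 in young WT, 1.87, 0.667 and 1.87 in aged WT and 0.4396, 1.27 and 2.605 in Sesn2-KO sham hearts, and at 0.4996, 8.89 and 2.77 in young WT, 3.27, 0.425 and 1.57 in aged WT and 4.16, 0.918 and 2.295 in Sesn2-KO hearts after IR. The highest value of each was again in young IR 2, with overlap of sham and IR in all 3 kinds of mice.

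Plk1, the Polo kinase of spindle assembly, stood at 0.701, 0.706 and 1.05 in young WT, 1.45, 0.593 and 2.06 in aged WT and 0.366, 0.744 and 1.52 in Sesn2-KO sham hearts, and at 0.0833, 7.34 and 2.19 in young WT, 3.43, 0.532 and 2.01 in aged WT and 2.03, 0.918 and 3.04 in Sesn2-KO hearts after IR, where the value of young IR 1 is a single count. Foxm1, the transcription factor of mitotic genes, stood at 1.964, 1.962 and 3.41 in young WT, 3.53, 1.11 and 2.99 in aged WT and 1.03, 1.64 and 3.11 in Sesn2-KO sham hearts, and at 0.999, 11.3 and 4.67 in young WT, 6.09, 1.49 and 3.32 in aged WT and 3.96, 2.09 and 3.92 in Sesn2-KO hearts after IR. Both genes were highest in young IR 2. Of the chromosomal passenger complex, which corrects wrong attachments to the spindle, Aurkb stood at 1.33, 1.02 and 1.54 in young WT, 1.87, 0.741 and 1.496 in aged WT and 0.952, 0.893 and 2.17 in Sesn2-KO sham hearts, and at 0.833, 9.51 and 3.15 in young WT, 5.18, 1.28 and 2.62 in aged WT and 3.35, 2.34 and 3.92 in Sesn2-KO hearts after IR. Its partner Birc5 (survivin) stood at 1.75, 2.04 and 2.84 in young WT, 2.49, 1.19 and 1.68 in aged WT and 1.98, 2.68 and 3.47 in Sesn2-KO sham hearts, and at 0.916, 14.5 and 3.91 in young WT, 8.45, 2.13 and 4.71 in aged WT and 7.504, 3.84 and 6.07 in Sesn2-KO hearts after IR. In Sesn2-KO mice the IR values of both genes were above all sham values, and in WT mice young IR 1 and aged IR 2 lay within or below the range of the sham hearts. Cdca8 (borealin), the third gene of that complex listed, had 0.667 to 2.56 CPM in sham and 1.28 to 8.66 CPM in IR hearts.

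The other mitotic genes are given by their range or by their level in young IR 2. Ccna2, the cyclin that spans S phase and mitosis, had 1.93 to 6.82 CPM in sham and 1.92 to 28.4 CPM in IR hearts. The spindle kinase Aurka had 1.10 to 2.03 and 1.06 to 6.88 CPM, and Tpx2, which activates it, 1.78 to 5.88 and 1.38 to 19.9 CPM. The checkpoint kinases Bub1 and Bub1b reached 6.49 and 12.5 CPM in young IR 2. The kinesin motors Kif11, Kif20a and Kif23 reached 14.6, 15.1 and 11.2 CPM there, and the cytokinesis genes Anln, Ect2, Racgap1 and Prc1 reached 14.8, 6.34, 18.9 and 23.3 CPM. The spread between replicates was accordingly large: the median SD of log2 CPM within groups was 0.93 for the 28 mitotic genes, 0.38 for the 13 S phase genes and 0.24 for all genes tested. Over the 18 libraries, the correlation of a mitotic gene with the mean of the others ran from 0.840 (Cdc20) to 0.980 (Top2a) in log2 CPM, apart from Cenpa (0.085) and Cenpf (-0.089). After group means were taken away it was still at a median of 0.962 for the other 26, with 0.637 for Cenpa and 0.425 for Cenpf. These correlations describe libraries that share groups and depth and carry no test. Among S phase genes they ran from 0.562 (Ccne2) to 0.953 (Mcm5).

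**Figure D4:**
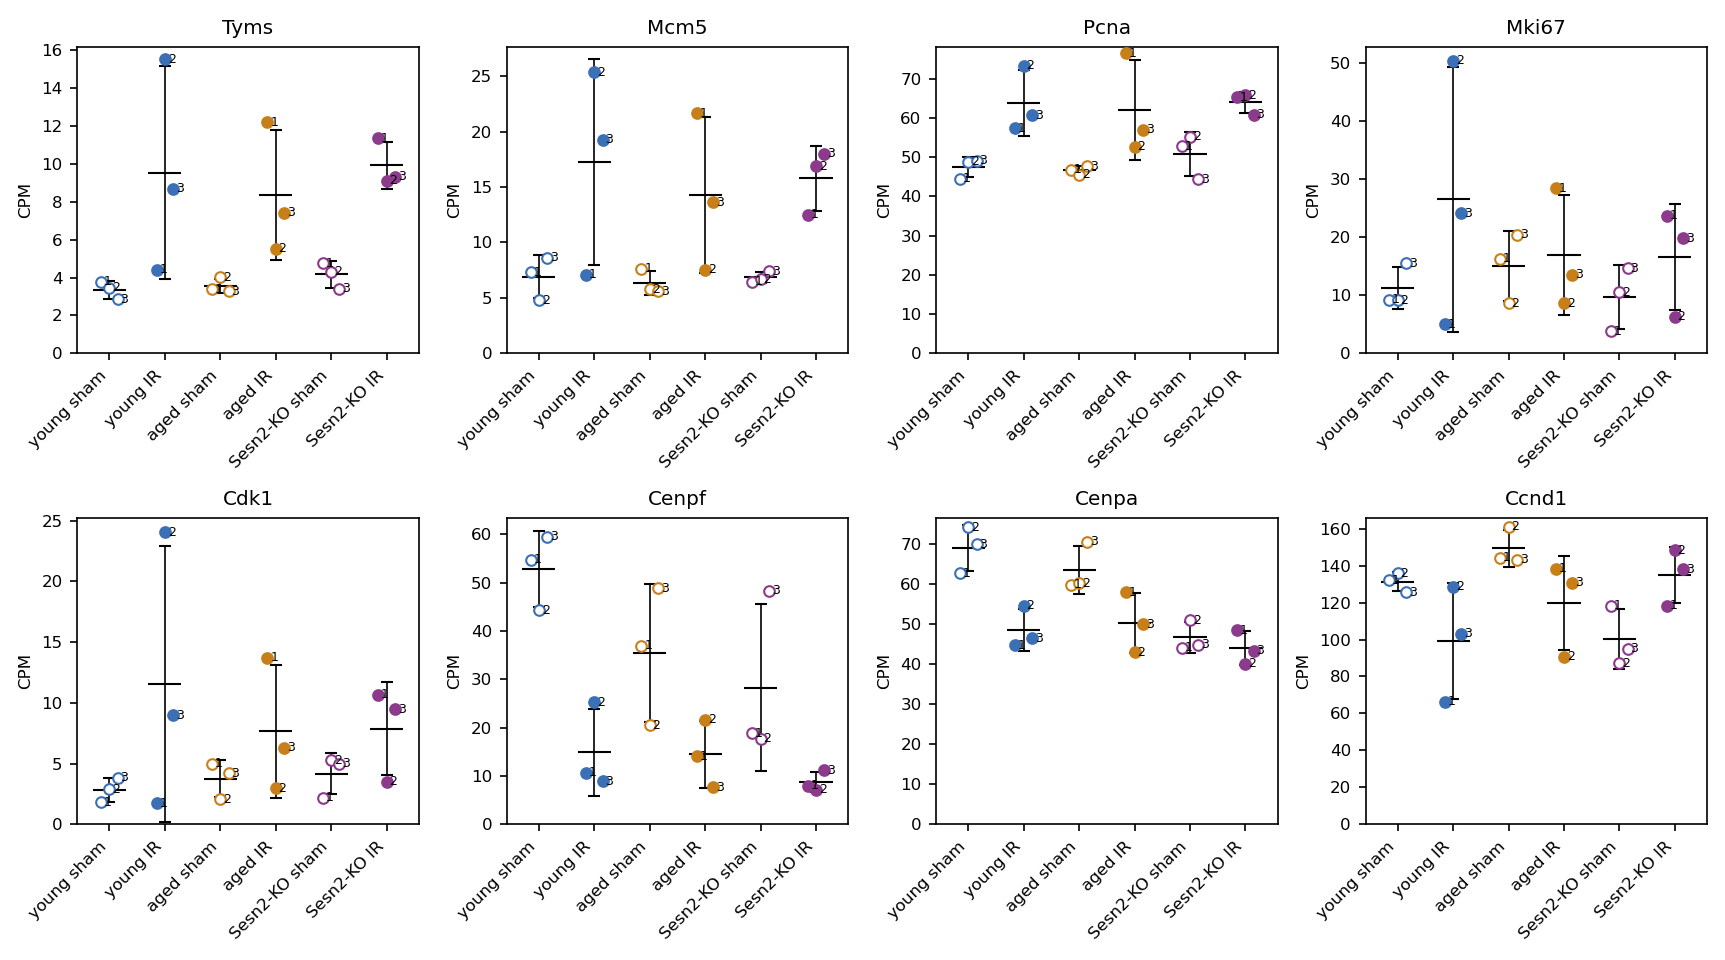
CPM of 8 genes in each library, numbered by replicate, with the group mean and SD (n = 3) and axes from 0. Tyms and Pcna lie above the sham libraries of the same mice in all 9 IR libraries, Mcm5 in all but young IR 1 and aged IR 2, Mki67 and Cdk1 spread widely within IR groups, and Cenpa is highest in young and aged sham hearts.

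Cenpa and Cenpf, both of the kinetochore, went the other way. Cenpf stood at 54.8, 44.3 and 59.5 in young WT, 36.9, 20.5 and 48.8 in aged WT and 18.8, 17.7 and 48.3 in Sesn2-KO sham hearts, and at 10.7, 25.3 and 8.87 in young WT, 14.1, 21.6 and 7.68 in aged WT and 8.01, 7.09 and 11.2 in Sesn2-KO hearts after IR (CPM). Young and Sesn2-KO IR values lay below all sham values of the same mice, while aged IR 2 lay above aged sham 2. Cenpa, the histone that marks centromeres, stood at 62.8, 74.2 and 70.03 in young WT, 59.9, 60.3 and 70.6 in aged WT and 44.2, 51.1 and 44.9 in Sesn2-KO sham hearts, and at 44.7, 54.6 and 46.4 in young WT, 57.9, 42.96 and 50.01 in aged WT and 48.5, 40.1 and 43.4 in Sesn2-KO hearts after IR. All young and aged sham hearts were above the IR hearts of their own kind, and the Sesn2-KO sham hearts lay below all young sham hearts. Cenpf has a transcript of 11130 bases, the longest of the 43. Of the 6 libraries that leaned to long transcripts, Cenpf was highest of its group in Sesn2-KO sham 3 and Sesn2-KO IR 3, lowest in young IR 3 and aged IR 3, and in the middle in young sham 1 and aged sham 1. Its IR response averaged over the mice was called also without those libraries.

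The genes outside the list whose log2 CPM followed Cenpf most closely over the 18 libraries were Olfml2a (r = 0.934), Kbtbd13, Gm6416 and Lamb3, and those that followed Cenpa were Mtg1 (r = 0.951), Tnfaip8, 6330410L21Rik and Hunk. None of the 10 closest genes of either was in the lists of cell cycle genes, and Kdr, a marker of endothelial cells, was among those closest to Cenpa (r = 0.899). The 10 closest to the mean of the mitotic genes were Hmmr (r = 0.975), Kif15, Kif22, Ckap2l, C330027C09Rik, Dlgap5, Kifc1, Cdca3, Pbk and Kif2c. The 10 closest to the mean of the S phase genes were Trip13 (r = 0.971), Spdl1, Plk4, Prim2, Ncapg2, Tcf19, Fignl1, Cdt1, 4930427A07Rik and Loxl2. The likeness to Cenpf and Cenpa was looked up after their values had been seen.

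The D cyclins, which couple growth signals to entry into the cycle, did not follow the S phase genes. Ccnd1 stood at 132, 136 and 126 in young WT, 144, 161 and 143 in aged WT and 118, 87.1 and 95.1 in Sesn2-KO sham hearts, and at 66.3, 129 and 103 in young WT, 138, 90.7 and 131 in aged WT and 118, 148 and 138 in Sesn2-KO hearts after IR. Ccnd2 stood at 158, 94.9 and 135 in young WT, 164, 145 and 130.04 in aged WT and 152, 91.8 and 153 in Sesn2-KO sham hearts, and at 57.6, 97.4 and 101 in young WT, 88.2, 75.7 and 106 in aged WT and 87.7, 149.9 and 157 in Sesn2-KO hearts after IR. In aged mice both were below all sham values after IR, in young mice sham and IR overlapped, and in Sesn2-KO mice neither separated. The lowest value of each gene was in young IR 1.

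In young WT hearts, IR raised Tyms and Mcm7 and lowered Cenpa and Cenpf, and left the remaining 39 genes below the threshold. The threshold for a call was an adjusted p of 0.05 in edgeR's quasi-likelihood test with Benjamini-Hochberg adjustment over 13859 genes, and 4 of 43 were called against 6.07% of all genes tested (4.17% upward and 1.9% downward). The log2 change was 1.47 ± 0.35, adjusted p = 0.0196 for Tyms (± SE) and 0.58 ± 0.15, adjusted p = 0.0326 for Mcm7. It was -0.53 ± 0.12, adjusted p = 0.0182 for Cenpa and -1.84 ± 0.46, adjusted p = 0.0284 for Cenpf. The next by p were Mcm5 (1.29 ± 0.38, adjusted p = 0.0548) and Mcm6 (0.89 ± 0.27, adjusted p = 0.0631), which were not called. The estimated change was above 0 for 39 of the 43 genes, against 50.8% of all genes, with medians of 0.58 for the S phase genes, 1.42 for the mitotic genes and -0.53 for the D cyclins. The mitotic median rested on young IR 2, without which 21 of 28 mitotic estimates were above 0 with a median of 0.31, and the S phase median was then 0.40. For 28 genes the unadjusted p was below 0.05 (24 upward), against 21% of all genes. CPM did not overlap upward for 5 genes (12.7% of all genes) and downward for 2 (9.63%). The count of 4 depended on single libraries: it was 25 without young IR 1 (10 S phase and 15 mitotic genes), 2 without young IR 2, 1 without young sham 1 or without young sham 2, and 0 without young sham 3 or without young IR 3. It was also 0 with the young libraries fitted alone and without the 6 length-leaning libraries, and 18 under limma voom with quality weights.

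In aged WT hearts, IR raised Mcm4, Tyms and Pcna, all S phase genes. The count was 3 of 43, against 7.61% of all genes tested (5.36% upward), and 12 of 43 had an unadjusted p below 0.05 (23.7%). The log2 change was 0.65 ± 0.18, adjusted p = 0.0348 for Mcm4, 1.25 ± 0.35, adjusted p = 0.0373 for Tyms and 0.42 ± 0.12, adjusted p = 0.0484 for Pcna. Mcm6 (0.91 ± 0.27, adjusted p = 0.053), Mcm3 (0.85 ± 0.27, adjusted p = 0.0604) and Mcm5 (1.18 ± 0.38, adjusted p = 0.0694) came next and were not called. The median estimate was 0.65 for the S phase genes and 0.34 for the mitotic genes, and 36 of 43 estimates were above 0 (50.3% of all genes). For 6 S phase genes CPM did not overlap upward (14.8% of all genes), for no mitotic gene did it, and Cenpa, Ccnd1 and Ccnd2 did not overlap downward (13.8%). The count was 6 without aged IR 2, 1 without aged sham 3, and 0 without any 1 of aged sham 1, aged sham 2, aged IR 1 or aged IR 3. It was 0 without the 6 length-leaning libraries and 12 under voom. Of 15 alternatives, Pcna lost its call in 12, among them the replicate block (adjusted p = 0.0502) and each of the 3 other scalings. Mcm4 lost its call in 8 and Tyms in 6. The mitotic median was -0.105 without aged IR 1 (9 of 28 above 0), 0.02 without aged sham 2 (16 of 28), 0.62 without aged sham 1 and 0.72 without aged IR 2.

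In Sesn2-KO hearts no gene of the 43 was called by edgeR, and none of the 13859 genes was (0%). At an unadjusted p below 0.05, 7 of the 43 differed, 6 S phase genes upward and Cenpf downward, against 14.7% of all genes. DESeq2 called 1 gene (Cenpf) and voom 1 (Mcm5). The smallest p belonged to Cenpf (-1.75 ± 0.48, adjusted p = 0.202), Tyms (1.20 ± 0.34, adjusted p = 0.202), Mcm5 (1.15 ± 0.38, adjusted p = 0.217), Mcm6 (0.77 ± 0.27, adjusted p = 0.225), Mcm3 (0.68 ± 0.26, adjusted p = 0.254) and Pcna (0.28 ± 0.12, adjusted p = 0.305). CPM did not overlap upward for 14 of the 43 genes, 10 of them S phase genes, against 12.6% of all genes, and downward for Cenpf (5.49%). The median estimate was 0.56 for the S phase genes and 0.68 for the mitotic genes, and 40 of 43 estimates were above 0 (49.3% of all genes). The mitotic median ran from 0.42 without Sesn2-KO sham 1 and 0.45 without Sesn2-KO IR 1 to 1.05 without Sesn2-KO sham 3 and 1.07 without Sesn2-KO IR 2.

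Averaged over the 3 kinds of mice, a comparison added after the data had been seen, IR raised 11 of 13 S phase genes and 6 of 28 mitotic genes and lowered Cenpa, Cenpf and Ccnd2. These 20 of 43 genes compare with 26.7% of all genes tested (15.8% upward and 10.9% downward). At an unadjusted p below 0.05 there were 29 (38.8% of all genes), and 39 estimates were above 0 (49.3%). Tyms had the smallest p (1.31 ± 0.20, adjusted p = 0.000272), a 2.47-fold mean increase. It was followed by Cenpf (-1.62 ± 0.27, adjusted p = 0.000527), Mcm5 (1.21 ± 0.22, adjusted p = 0.000973), Mcm6 (0.86 ± 0.16, adjusted p = 0.00103), Pcna (0.37 ± 0.07, adjusted p = 0.00151) and Mcm4 (0.52 ± 0.10, adjusted p = 0.00161). Further S phase genes that rose were Mcm3 (0.78), Mcm7 (0.42), Rrm2 (0.93), Rrm1 (0.33), Tk1 (0.91) and Mcm2 (0.54, adjusted p = 0.0411). Of 27 alternatives, Mcm2 lost its call in 15, Rrm1 in 12, Tk1 in 11, Mcm3 and Rrm2 in 1 each and Mcm7 in 0. Ccne1 (0.51 ± 0.19, adjusted p = 0.057) and Ccne2 (0.20 ± 0.15, adjusted p = 0.337) were not called.

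The mitotic genes that rose in this average were Aurkb (1.37 ± 0.38, adjusted p = 0.0147), Birc5 (1.36), Cdca8 (1.20), Cdk1 (1.30), Ccna2 (1.30) and Aurka (0.89, adjusted p = 0.0317). Among them Aurkb, Birc5 and Cdca8 belong to the chromosomal passenger complex. Of 27 alternatives, Aurka lost its call in 10, Ccna2 in 8, Cdk1 in 7, Cdca8 in 3 and Aurkb and Birc5 in 1 each. Mitotic estimates had larger errors than S phase estimates: Mki67 was at 0.70 ± 0.39, adjusted p = 0.197, Top2a at 1.05 ± 0.43, adjusted p = 0.0831, Plk1 at 1.22 ± 0.51, adjusted p = 0.0883 and Foxm1 at 0.81 ± 0.39, adjusted p = 0.131. The median was 0.79 for the 28 mitotic and 0.54 for the 13 S phase genes, against -0.0038 for all genes, and without young IR 2 it was 0.47 for the mitotic and 0.48 for the S phase genes. Cenpa was at -0.33 ± 0.07, adjusted p = 0.0028 and Ccnd2 at -0.46 ± 0.15, adjusted p = 0.0295. The count was 32 without young IR 1 and 31 without young sham 3 and young IR 1 together. It was 12 without aged IR 1, and 13 without young IR 2 or without Sesn2-KO sham 1. Without the 6 length-leaning libraries it was 5: Tyms, Cenpf, Pcna, Cenpa and Mcm7, which were also called in every other alternative run for this comparison.

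**Figure D5:**
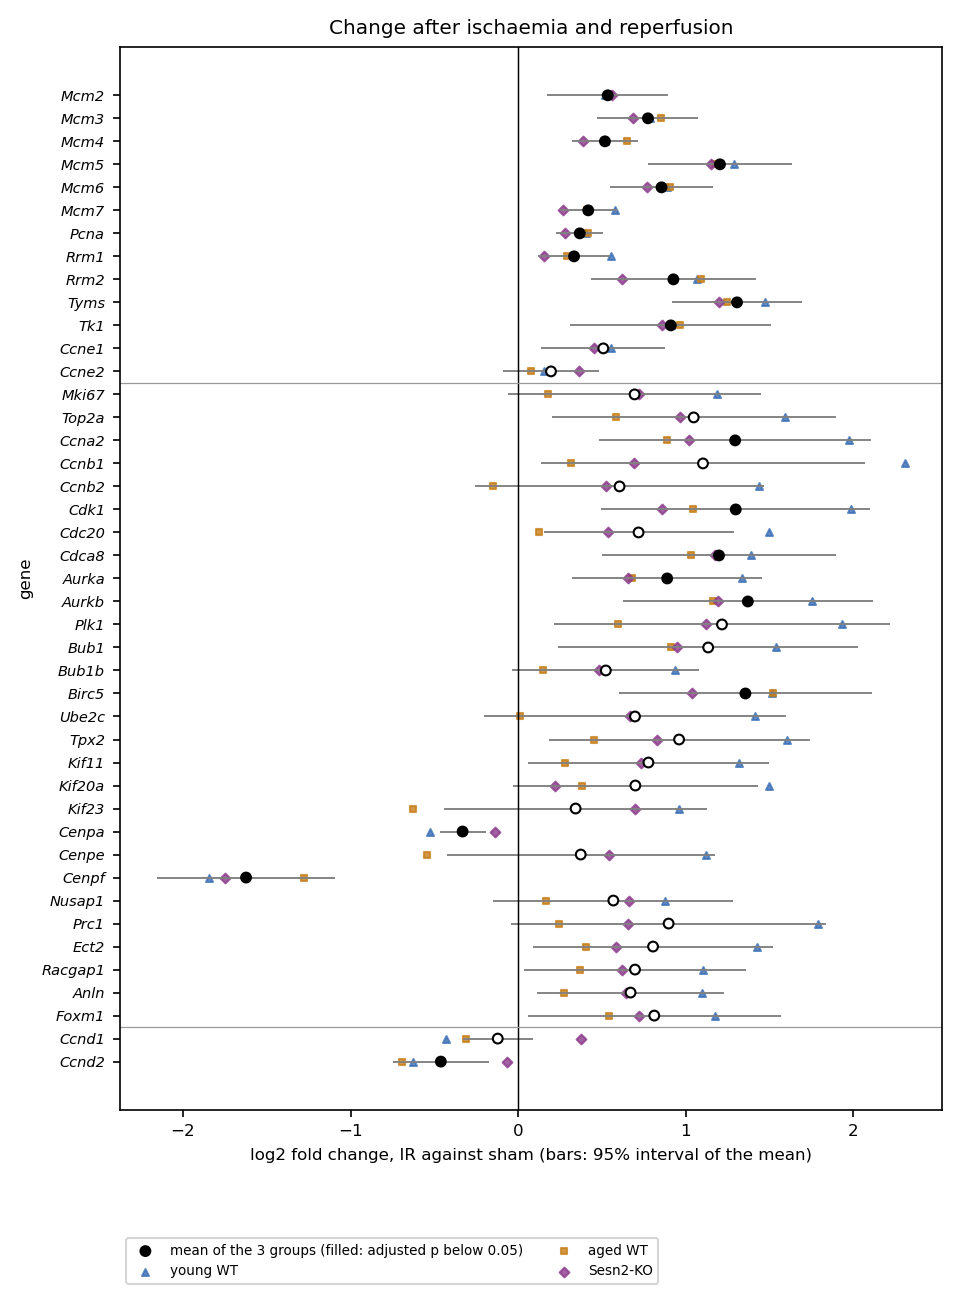
Log2 fold change of IR against sham for each gene in young WT (triangles), aged WT (squares) and Sesn2-KO (diamonds), and for the mean of the 3 (circles, filled where the adjusted p was below 0.05, with 95% intervals of 1.96 SE). S phase intervals are short and mostly above 0, mitotic intervals are long, and Cenpf lies at -1.62 alone at the left.

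No difference between aged and young hearts was detectable for these genes. Between aged and young sham hearts 0 of 43 were called by edgeR, DESeq2 or voom (0.152% of all genes by edgeR), and 0 had an unadjusted p below 0.05 (4.44%). The smallest p were those of Cdc20 (0.72 ± 0.52, adjusted p = 1), Cenpf (-0.57 ± 0.44, adjusted p = 1), Mcm4 (-0.23 ± 0.18, adjusted p = 1), Ccnb2 (0.87 ± 0.78, adjusted p = 1), Ccnd1 (0.19 ± 0.18, adjusted p = 1) and Ccnb1 (0.87 ± 0.93, adjusted p = 1). Cdc20 and Ccnd1 did not overlap, upward in aged hearts (5.71% of all genes), and no gene did so downward (6.57%). Of the mitotic estimates 24 of 28 were above 0 (48.2% of all genes), with a median of 0.41. That median was 0.20 without aged sham 1, 0.25 without aged sham 3, 0.62 without young sham 3, 0.70 without aged sham 2 and 0.12 (17 of 28) without the 6 length-leaning libraries. Between aged and young IR hearts 0 of 43 were called by each of the 3 tools (0.0649% of all genes by edgeR), 0 had an unadjusted p below 0.05 (3.99%), and 0 did not overlap upward (2.44%) or downward (5.55%). Of the mitotic estimates 1 of 28 was above 0 (48.8% of all genes), with a median of -0.59. Without young IR 2 the direction turned, with 27 of 28 above 0 and a median of 0.42, and without aged IR 2 the median was -0.24. The smallest p there were those of Ccnd1 (0.31 ± 0.18, adjusted p = 1), Kif23 (-1.10), Bub1b (-0.76), Cenpe (-1.04), Ccnb1 (-1.12) and Rrm1 (-0.26).

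The IR response itself was tested for a difference between aged and young hearts. No gene of the 43 was called by edgeR, DESeq2 or voom, and none of all 13859 by edgeR (0%), while 0 of 43 had an unadjusted p below 0.05 (1.1%). The intervals remained wide. The aged minus young difference in log2 change was 0.02 ± 0.17 for Pcna (95% interval -0.33 to 0.36), -0.11 ± 0.53 for Mcm5 (-1.16 to 0.94) and -0.23 ± 0.49 for Tyms (-1.18 to 0.73). For mitotic genes it was -1.01 ± 0.94 for Mki67 (-2.85 to 0.83) and -1.99 ± 1.23 for Ccnb1 (-4.40 to 0.41). The smallest p belonged to Cdc20 (-1.37 ± 0.71, adjusted p = 1), Cenpe (-1.67), Kif23 (-1.59), Ccnb1, Ccnb2 (-1.59) and Prc1 (-1.54). The median difference was 0.01 over the S phase genes and -1.01 over the mitotic genes, with 3 of 28 mitotic estimates above 0 (49.6% of all genes). Without young IR 2 there were 18 of 28 above 0, with a median of 0.11.

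Loss of Sesn2 went with lower Cenpa in sham hearts and with no other call among the 43 by edgeR, while voom also called Cenpf (adjusted p = 0.0112). Cenpa was at 69.01 ± 5.803 CPM in young WT sham and 46.7 ± 3.79 CPM in Sesn2-KO sham hearts (SD, n = 3), a log2 difference of -0.56 ± 0.12, adjusted p = 0.014. That is 1 of 43 genes, against 5.11% of all genes tested (1.79% downward). At an unadjusted p below 0.05 there were 2 (19%), and 25 estimates were above 0 (53.3%). Neutrophil markers, all 7 of them higher in the knockout, summed to 37.4 to 89.2 CPM in these Sesn2-KO sham hearts and to 5.26 to 7.38 CPM in young sham hearts, and their part in the Cenpa difference was not tested. The endothelial marker Kdr was lower in the knockout in the same comparison (-0.73 ± 0.12, adjusted p = 0.00253), at 261, 274 and 247 CPM in young and 188, 146 and 136 CPM in Sesn2-KO sham hearts. Of 8 endothelial markers Kdr was the only 1 called lower there. Kdr was already among the genes closest to Cenpa over the same libraries (r = 0.899), so its likeness to Cenpa is no separate observation. It also fell after IR in young (-0.75 ± 0.12, adjusted p = 0.00247) and aged hearts (-0.46 ± 0.12, adjusted p = 0.0314), and its part in the Cenpa values was not tested. The next by p were Ccnd1 (-0.39 ± 0.18, adjusted p = 0.261), Mcm7 (0.32 ± 0.15, adjusted p = 0.27), Cenpf (-0.89 ± 0.45, adjusted p = 0.297), Ccne1 (0.41 ± 0.33, adjusted p = 0.57) and Mcm3 (0.28 ± 0.27, adjusted p = 0.648). Cenpa and Ccnd1 did not overlap downward (10.5% of all genes), and Mcm7 did not overlap upward (14.9%). The Cenpa call was lost without young sham 2, without young sham 3, without Sesn2-KO sham 1 and without the 6 length-leaning libraries (log2 difference -0.64 to -0.51 over all alternatives, adjusted p up to 0.0924). After IR 0 of 43 genes were called between Sesn2-KO and young WT by edgeR, DESeq2 or voom (0.433% of all genes by edgeR). At an unadjusted p below 0.05 there were 2, Ccnd2 (0.59 ± 0.26, adjusted p = 0.346) and Ccnd1 (0.41 ± 0.18, adjusted p = 0.365), against 12.7% of all genes. Bub1b (-0.84), Cenpf (-0.80), Kif20a (-0.98) and Cenpa (-0.18) came next. All 28 mitotic estimates were below 0 in this comparison (51.2% of all genes were above 0), with a median of -0.70, and young IR 2 held the highest young IR value of each. Without young IR 2 there were 24 of 28 above 0, with a median of 0.31.

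The difference of the IR response between Sesn2-KO and young WT hearts, which shares the young libraries with the age comparison, was not called for any of the 43 genes by the 3 tools (0.0577% of all genes by edgeR). At an unadjusted p below 0.05 there were 2, Ccnd1 (0.80 ± 0.26, adjusted p = 0.637) and Cenpa (0.39 ± 0.17, adjusted p = 0.882), against 5.55% of all genes. The Ccnd1 estimate of IR against sham was -0.43 in young WT and 0.38 in Sesn2-KO, neither called. Ccnd2 (0.56), Rrm1 (-0.40), Mcm7 (-0.31) and Kif20a (-1.27) came next. The difference was -0.14 ± 0.53 for Mcm5 (95% interval -1.18 to 0.90), -0.27 ± 0.48 for Tyms (-1.21 to 0.67) and -0.47 ± 0.95 for Mki67 (-2.33 to 1.38). Of the 43 estimates 6 were above 0 (45.5% of all genes), 2 S phase and 2 mitotic genes and both D cyclins. Without young IR 2 there were 8 of 13 S phase and 23 of 28 mitotic estimates above 0.

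Of 30 other replication genes outside the 43, 4 rose in young WT hearts after IR, 6 in aged WT and 0 in Sesn2-KO. In Sesn2-KO hearts 12 had an unadjusted p below 0.05, against 14.7% of all genes. Of all genes tested 4.17% rose in young and 5.36% in aged hearts. In young hearts they were Uhrf1 (2.21 ± 0.48, adjusted p = 0.0143), which maintains DNA methylation behind the fork, the clamp loader gene Rfc5 (0.89), the ligase gene Lig1 (1.07) and Cdca7 (1.26). In aged hearts those with the smallest p were Orc1 (2.64 ± 0.64, adjusted p = 0.0206) of the origin recognition complex, the primase gene Prim1 (1.37), the licensing factor gene Cdt1 (1.44) and Rfc5 (0.79). Orc1 was at very low levels, with 0.207, 0.148 and 0 CPM in aged sham and 0.914, 0.532 and 1.05 CPM in aged IR hearts. In the average over the 3 kinds of mice 19 of 30 rose (15.8% of all genes) and 1, Dut (-0.30), fell (10.9% of all genes). Of 46 further mitotic genes 1 rose in young hearts (Cdca5, 2.16 ± 0.61, adjusted p = 0.0455), 1 in aged hearts (Cks1b, 1.11 ± 0.28, adjusted p = 0.0256) and 18 in the average. The shares of all genes that rose were 4.17%, 5.36% and 15.8%. The median change of the 46 was 1.22, 0.46 and 0.73 in young, aged and Sesn2-KO hearts, beside 1.42, 0.34 and 0.68 for the 28.

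Regulators of the step into S phase were also compared. Of 7 inhibitors of cyclin-dependent kinases, Cdkn1a (2.09 ± 0.43, adjusted p = 0.0101), which codes for p21, and Cdkn2d (0.41 ± 0.11, adjusted p = 0.0446) rose in young hearts after IR, and Cdkn2d (0.40) rose in aged hearts. Cdkn2d lost its call in 12 of 16 alternatives in young and 10 of 15 in aged hearts, and Cdkn1a in 3 of 16 in young hearts. Cdkn1a stood at 10.03, 20.1 and 13.2 in young WT, 13.3, 19.9 and 14.5 in aged WT and 44.4, 20.1 and 36.9 in Sesn2-KO sham hearts, and at 86.7, 46.4 and 52.4 in young WT, 40.97, 21.7 and 56.03 in aged WT and 33.5, 102 and 67.97 in Sesn2-KO hearts after IR. Its highest young IR value was in young IR 1 and its highest Sesn2-KO IR value in Sesn2-KO IR 2, which had the lowest mitotic sums of their groups, whereas in aged mice the IR library with the lowest mitotic sum (aged IR 2) had the lowest Cdkn1a value. Of 19 Rb and E2F family genes, E2f1 rose in aged hearts (1.49 ± 0.41, adjusted p = 0.0383) and none in young hearts. Of 12 other G1 regulators Myc rose in young (1.76 ± 0.37, adjusted p = 0.0112) and aged hearts (1.84 ± 0.35, adjusted p = 0.00619). Of 14 p53 targets 1 was called in each, Cdkn1a in young and Bax (0.54 ± 0.16, adjusted p = 0.0455) in aged hearts. Bax lost its call in 10 of 15 alternatives. The shares of all genes that rose were 4.17% in young and 5.36% in aged hearts. In Sesn2-KO hearts no gene of these lists was called after IR. Between Sesn2-KO and young sham hearts Cdkn2a (2.66 ± 0.53, adjusted p = 0.0088), Myc (1.88 ± 0.36, adjusted p = 0.00763) and Lin37 (0.49 ± 0.14, adjusted p = 0.0497) were higher in the knockout. Of all genes 5.11% were called in this comparison in either direction. Lin37 lost its call in 14 of 16 alternatives, and Cdkn2a and Myc in 1 of 16 each. Cdkn2a, the p16 and Arf gene known as a marker of senescence, stood at 0.281, 0.235 and 0.243 CPM in young, 0.761, 1.78 and 1.22 in aged and 2.42, 1.34 and 1.23 in Sesn2-KO sham hearts.

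Markers of other cells of the ventricle moved in the same comparisons, and their part in the changes of the 43 genes was not tested. All 7 neutrophil markers rose after IR in young and aged WT hearts and were higher in Sesn2-KO than in young sham hearts. Their sum ran at 5.26 to 7.38 CPM in sham and 63.7 to 127 in IR hearts of young mice, 6.36 to 19.2 and 92.6 to 172 in aged mice, and 37.4 to 89.2 and 86.9 to 164 in Sesn2-KO mice. Cxcr2 and Mmp8 were at 0 in some libraries. Markers of neutrophil precursors, which divide in the marrow, stayed at or under 1.04 CPM in sum in every library, and each of Mpo, Elane, Prtn3 and Ctsg was at 0 in some library. Fibroblast markers rose in 4 of 8 cases in young and 3 of 8 in aged hearts, with a sum of 1603 to 2186 CPM in sham and 1865 to 4331 in IR hearts of young mice, 1521 to 1913 and 2161 to 2895 in aged mice, and 2329 to 2805 and 2465 to 3863 in Sesn2-KO mice. Macrophage markers rose in 2 of 8 cases in each, with a sum of 334 to 495 CPM in sham and 505 to 662 in IR hearts of young mice, 395 to 632 and 564 to 846 in aged mice, and 637 to 718 and 746 to 807 in Sesn2-KO mice. No fibroblast or macrophage marker was at 0 in any library. In young IR libraries 1 to 3 the fibroblast sum was 1865, 4331 and 3356 CPM and the mitotic sum 39.1, 402 and 153 CPM. In aged IR libraries they were 2895, 2811 and 2161 CPM and 203, 49.02 and 119 CPM. In Sesn2-KO IR libraries they were 3863, 2465 and 2973 CPM and 165, 65.4 and 150.3 CPM. The IR library with the lowest mitotic sum thus had the lowest fibroblast sum in young and Sesn2-KO mice but not in aged mice. Markers within the fibroblast sum did not move together. In young IR libraries 1 to 3 Col3a1 stood at 357, 1541 and 1103 CPM and Postn at 40.4, 533 and 445 CPM. Dcn stood at 959, 820 and 694 CPM there and Tcf21 at 12.2, 15.5 and 10.3 CPM, so the sum does not measure the number of fibroblasts. Heart muscle markers summed to 36786 to 37811 CPM in sham and 29652 to 33482 in IR hearts of young mice, 36215 to 37511 and 29316 to 32831 in aged mice, and 30627 to 31182 and 27063 to 31083 in Sesn2-KO mice. Of 8 endothelial markers 1 fell after IR in young and 1 in aged hearts, and no mural, T and NK, B cell, erythroid, mesothelial or atrial marker was called after IR within any kind of mouse. Of the heart muscle markers 1 fell in aged hearts. Between Sesn2-KO and young sham hearts 2 of 8 T and NK cell markers were higher, and 1 endothelial and 1 mesothelial marker were lower in the knockout. The 4 atrial markers summed to 224 to 321 CPM in sham and 144 to 712 in IR hearts of young mice, 176 to 267 and 167 to 571 in aged mice, and 228 to 737 and 899 to 1754 in Sesn2-KO mice. Most of this sum was Nppa, which is also in the heart muscle list (1747 CPM in Sesn2-KO IR 2). Myl7 stood at 37.2, 4.63 and 4.95 CPM in young sham and 1.67, 0.155 and 0.0954 in young IR hearts. In aged mice it stood at 19.6, 2.74 and 15.8 in sham and 1.07, 0 and 0.524 after IR. In Sesn2-KO mice it stood at 27.5, 2.31 and 0.0724 in sham and 255, 0.501 and 39.02 after IR. The 4 haemoglobin genes of the erythroid list were at 0 in every library, so they could not be called. Alas2 of the same list had 10.4 to 61.0 CPM. Why the haemoglobin genes had no counts was not tested, and their zeros are no measure of the RNA in the hearts.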

How the data were processed

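RNA for 18 left-ventricle libraries (3 in each of 6 groups) was sequenced after mRNA selection with a stranded kit, per the labels' protocols. The authors deposited raw read counts per gene; FastQC, Bowtie2, TopHat2, HTSeq and SAMtools and the mm10 build are named, without their roles, per the submitters' processing notes. For tool versions, annotation and strand option of counting, the entry is: not given in the sources used here. Unassigned reads (no feature 6.12 to 9.06%, ambiguous 0.631 to 0.759%) were left out of totals. From the counts, CPM was computed over the gene total of each library, without further scaling. All tests used edgeR 4.0.16 (R 4.3.3): filterByExpr, TMM factors (0.951 to 1.05), a model of 6 group means over all 18 libraries, the robust quasi-likelihood test, and Benjamini-Hochberg adjustment over 13859 of 24421 genes. Intervals are 95% (1.96 SE). The scripts were tested on simulated counts. Alternatives were other scalings, no filter, DESeq2 1.42.0, limma 3.58.1 voom, the compared groups alone, a replicate block, and libraries left out. The mean over 3 mouse groups, the mitotic sum without Cenpa and Cenpf, the genes most like each of those, and the omission of young sham 3 with young IR 1 were chosen after seeing the data. The 43 genes and the other lists were chosen with earlier results of these data known. By rule, up to 6 of the 43 with the smallest p per comparison, every called gene and up to 4 genes of another list are given with statistics. For some of them only the estimate is printed. Transcript lengths and positions are from GENCODE release M21.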

Additional observations from a re-analysis of the deposited data

Results flagged for a closer look

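In the test of whether the IR response differed between Sesn2-KO and young WT hearts, Clec4d, a neutrophil marker and none of the 43 genes, was called: its log2 response in Sesn2-KO minus that in young WT was -3.346 (SE 0.471, adjusted p = 0.0111 by edgeR). None of the 43 cell cycle genes was called in that test. Clec4d stood at 0.421, 1.02 and 0.243 CPM in young sham and 6.75, 11.7 and 11.2 in young IR hearts. In Sesn2-KO mice it stood at 7.03, 8.26 and 9.26 in sham and 14.3, 14.02 and 14.5 after IR. The negative value thus goes with a higher sham level in the knockout, and its IR level was not lower there. The call was lost in 3 of 22 alternatives: without young sham 1, without young sham 3 and without the 6 length-leaning libraries.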

How the results depend on the processing

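The number of the 43 genes called depended on the test and on single libraries. In young WT hearts IR against sham gave 4 calls. It gave 2 without the filter on low counts, 9 with DESeq2, 18 with voom, 0 with the compared groups alone, 0 without the 6 length-leaning libraries, 11 without young sham 3 and young IR 1 together, and 0 to 25 with 1 library left out. In aged WT hearts the 3 calls became 1 with library totals alone, 1 without the filter, 7 with DESeq2, 12 with voom, 0 without the length-leaning libraries and 0 to 6 with 1 library left out. In Sesn2-KO hearts DESeq2 gave 1 call and voom 1. Between Sesn2-KO and young sham hearts the 1 call became 2 with voom, 0 without the length-leaning libraries, 0 without young sham 3 and young IR 1, and 0 to 1 with 1 library left out. The mean over the mice gave 5 without the length-leaning libraries, 31 without young sham 3 and young IR 1, and 12 to 32 with 1 library left out, against 20. The cause of these shifts was not tested. Over 2215 alternative values of 114 named changes 290 calls were lost, 33 gained and 25 values had the opposite sign, none of them a called change. With 1 library left out, the estimate between aged and young IR hearts ran from -1.91 to 0.20 for Ccnb1, -1.28 to 0.027 for Bub1b and -1.61 to 0.32 for Kif23. The aged minus young response ran from -2.12 to 0.16 for Ccnb2, -0.58 to 0.30 for Tyms, -0.52 to 0.27 for Mcm5 and -0.14 to 0.11 for Pcna. The Sesn2-KO minus young response ran from -0.60 to 0.26 for Tyms, -0.96 to 0.38 for Mki67 and -0.50 to 0.24 for Mcm5. The highest value of each of these was the one without young IR 2. The aged minus young response of Mcm5 was also 0.081 with voom and 0.13 without the length-leaning libraries. That of Pcna was -0.000165 with upper quartile scaling, -0.0156 with library totals, -0.00150 without the filter and -0.0712 without young sham 3 and young IR 1. With the replicate number as a replicate block the counts were 4 in young, 2 in aged, 0 in Sesn2-KO hearts, 1 between Sesn2-KO and young sham hearts and 20 in the mean. Deviations of same-numbered libraries correlated at -0.389 to 0.720 over 45 pairs, 16 of them over 0.1. The libraries numbered 3 of both IR groups of WT mice and of both Sesn2-KO groups, which are the length-leaning libraries of their groups, correlated at 0.376 to 0.720 in all 6 pairs, and the labels name no shared batch or day. The lowest count of a mitotic gene in a library was 1.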
